A study of Mus musculus with 7 samples.

Results

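Genes of matrix breakdown and its control were examined for binding of the AP-1 protein JUNB in mouse embryonic fibroblasts at the start of cardiac reprogramming. The set was 10 genes chosen as AP-1 targets in fibroblasts. They were the matrix metalloproteinase genes Mmp2, Mmp3, Mmp9, Mmp10, Mmp13 and Mmp14, the inhibitor genes Timp1, Timp2 and Timp3, and Plaur. Peaks from the 4 JUNB lists sharing 1 bp or more formed a region, and each region went to the protein-coding gene with the nearest end within 100 kb. The 10 genes owned 14 of 12655 regions, or 14 of the 11016 regions that could be given to a gene, and 6 of the 10 owned at least 1. Mmp2, Mmp3, Mmp9 and Mmp10 owned none.

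Matrix metalloproteinases are zinc enzymes that cut collagens and other matrix proteins. Timps bind their active sites and block them, and the product of Plaur, the urokinase receptor, gathers the protease that turns plasminogen into plasmin at the cell surface. AP-1 is a dimer of Jun and Fos family proteins that reads the DNA motif TGANTCA. In fibroblasts it is the textbook activator of stromelysin and collagenase genes after serum, phorbol ester or cytokines, and Timp1 is a classic serum-induced gene.

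The cells were the line iMGT-Myh6-eGFP-MEF, mouse embryonic fibroblasts in which doxycycline switches on the reprogramming factors MGT (Mef2c, Gata4, Tbx5) and the Myh6 promoter drives the reporter eGFP; both groups received doxycycline and were harvested on day 1 after induction. By the sample titles, 2 JUNB libraries came from cells given siControl and 2 from cells given siChst7, an siRNA against the chondroitin sulfotransferase gene Chst7. The protocol text names siJunb and siH1f0 where the titles have siChst7, so which siRNA the second group received rests on the titles and treatment labels. JUNB was mapped by CUT&RUN, in which an antibody-guided nuclease frees the DNA around the bound protein. The lists held 6469 and 5827 peaks for siControl and 10163 and 4735 for siChst7, in replicate order. The labels state 30 M reads per library; the peak lists carry no counts, so no counting error can be given. No antibody background is set beside the values, since the 3 IgG libraries are not analysed here. The labels call the libraries biological replicates of 1 line without describing separate cultures. Peaks do not measure expression. Of the cell type markers, 6 of 10 fibroblast genes owned a region, 4 of 4 epithelial, 4 of 7 macrophage, 3 of 5 endothelial and 1 of 6 cardiomyocyte genes. Of all protein-coding genes, 25.1% owned one. Of the 4 macrophage marker regions, 3, at Cd14, Cd68 and Itgam, were called in each siControl list and in no siChst7 list (1.60% of all regions were), and the one at Ptprc in siChst7 replicate 1 alone. Of 20 fibroblast marker regions, 1, at Col1a1, was called in the siControl pair alone. Their part in the results on the 10 genes was not tested.

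The promoters of several of these genes carry the AP-1 motif, and they are shown here because JUNB regions covered those of Timp1 and Plaur and none of the metalloproteinase promoters at hand. The bases are from RefSeq (GRCm38.p6, the assembly of mm10), 5′ to 3′ on the + strand, and end just before the annotated start; capitals mark TGANTCA. Timp1 lies on chrX:20869916-20870165, Plaur on chr7:24462233-24462482, Mmp13 on chr9:7272264-7272513, Mmp3 on chr9:7445572-7445821 and Mmp10 on chr9:7502092-7502341.
Timp1: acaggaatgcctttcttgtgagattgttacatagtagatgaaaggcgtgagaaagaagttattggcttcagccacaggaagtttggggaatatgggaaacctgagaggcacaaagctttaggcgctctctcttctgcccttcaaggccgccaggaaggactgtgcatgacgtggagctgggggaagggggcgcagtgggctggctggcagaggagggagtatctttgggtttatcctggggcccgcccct
Plaur: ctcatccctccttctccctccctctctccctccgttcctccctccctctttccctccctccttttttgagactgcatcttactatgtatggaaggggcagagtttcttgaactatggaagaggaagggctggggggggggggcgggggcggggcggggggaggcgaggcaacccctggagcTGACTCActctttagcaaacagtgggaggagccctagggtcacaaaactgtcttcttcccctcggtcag
Mmp13: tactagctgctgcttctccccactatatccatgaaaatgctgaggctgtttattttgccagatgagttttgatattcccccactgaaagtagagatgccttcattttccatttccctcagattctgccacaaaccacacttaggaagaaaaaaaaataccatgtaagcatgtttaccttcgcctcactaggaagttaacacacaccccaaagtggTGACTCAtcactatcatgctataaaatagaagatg
Mmp3: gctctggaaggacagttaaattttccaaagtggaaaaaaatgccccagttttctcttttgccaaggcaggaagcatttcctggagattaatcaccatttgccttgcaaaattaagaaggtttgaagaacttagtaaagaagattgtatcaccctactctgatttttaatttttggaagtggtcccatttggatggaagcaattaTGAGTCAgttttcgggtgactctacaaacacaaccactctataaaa
Mmp10: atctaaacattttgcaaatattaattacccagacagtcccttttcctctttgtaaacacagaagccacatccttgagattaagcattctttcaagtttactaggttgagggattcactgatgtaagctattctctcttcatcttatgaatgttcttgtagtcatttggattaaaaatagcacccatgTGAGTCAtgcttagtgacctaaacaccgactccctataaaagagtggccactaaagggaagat

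Counted from the annotated start, the motif stood at −46 bases in Mmp3, −63 in Mmp10, −35 in Mmp13 and −69 in Plaur. It is nearly its own reverse complement, so 1 search covers both strands. Promoter windows, each 250 bases before to 50 after a start, were at hand for 8 of the 10 genes (not Mmp2 or Mmp9), and 4 of the 8 held the motif, against 7.81% of 32851 windows of all genes. The genes were chosen as AP-1 targets, so this share is no independent finding. The windows of Timp1, Timp2, Timp3 and Mmp14 had no match. Timp1 instead held the variant TGAGTAA, searched for after its window had been read, 26 bases after the start (chrX:20870185-20870205), a variant present on either strand in 2.68% of windows.
Timp1 variant: gggtggaTGAGTAAtgcgtcc

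The joined JUNB region lay over all 300 bases of the Timp1 window and included the variant, but the siControl replicate 2 peak in it ended at 20870135, before the variant. Every peak summit in that region lay upstream of the variant, with the median summit 232 bases from the middle of the variant. At Plaur a region called in siChst7 replicate 1 alone covered 84 bases of the window; its edge lay 29 bases from the motif, on the downstream side. No region reached the windows of Mmp3, Mmp10 or Mmp13. The nearest region edge was 3.1 kb from the Mmp13 motif, 169.8 kb from that of Mmp3 and 226.3 kb from that of Mmp10. Among all windows with TGANTCA, 9.16% were covered by a region of any list, and 3.63% of those without it, so a motif without a called region was the common case. A region that is not called can hold signal below a list's threshold.

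Mmp3, Mmp10 and Mmp13 belong to a run of 10 metalloproteinase genes on chromosome 9 with no other protein-coding gene within it (7272514 to 7699585, 427.1 kb). Counted by gene, 8 of these 10 held TGANTCA in at least 1 window, namely Mmp1a, Mmp1b, Mmp7, Mmp12 and Mmp20 besides Mmp3, Mmp10 and Mmp13. Mmp7 and Mmp12 each also had a window without it. The whole run held 1 JUNB region, called in 1 list, or 0.23 per 100 kb of that span. The Mmp13 region at −13.68 kb lies outside the span. Over the genome nearest to all protein-coding genes, which takes in flanks of up to 100 kb, the density was 0.65 regions per 100 kb. These densities rest on stretches of genome defined differently, and their difference was not tested.

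**Figure D1:**
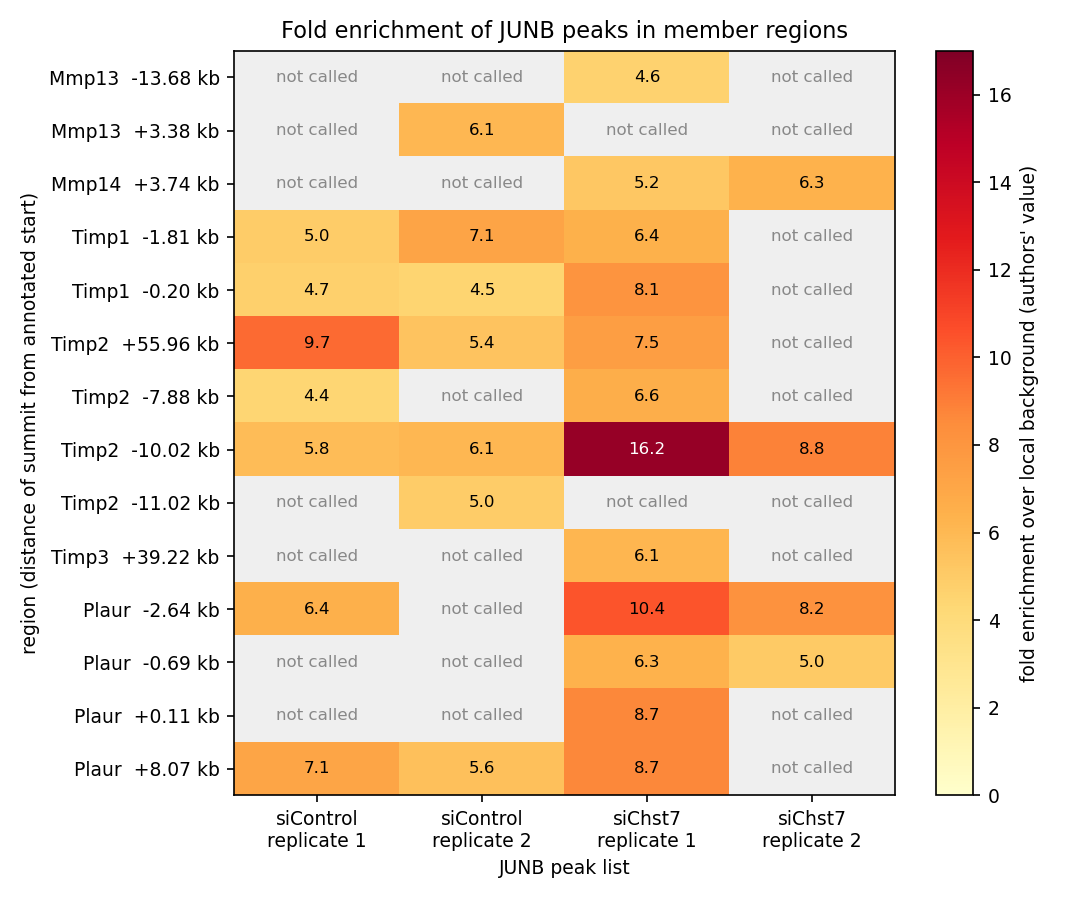
Fold enrichment over local background, as the authors' peak caller gave it, for each of the 14 regions (rows, with the distance of the median summit from the annotated start in kb, negative upstream) in each of the 4 JUNB lists (columns); grey cells are regions with no peak in that list. The Timp2 region at −10.02 kb is the row with a peak in every list, and siChst7 replicate 1 has a peak in 12 of the 14 rows.

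Values per peak are the authors' own: the fold over local background at the summit and −log10 q, where q is the p-value adjusted for multiple testing. Timp and Plaur genes accounted for 11 of the 14 regions: 4 each at Timp2 and Plaur, 2 at Timp1 and 1 at Timp3. Regions were narrow, from 201 to 1170 bp, and lay 0.2 to 13.68 kb from the nearest end of their gene. Within 2 kb of an end were 6 of the 14 (42.9%), against 19.9% of all regions given to a gene. All 6 belonged to Timp1, Timp2 and Plaur, with 32.5, 46.2 and 25.7 kb of genome nearest to them. The length of that stretch bounds the distance, and its part in the share was not tested. Of the 10 genes, 6 owned a region in any list (25.1% of 21900 protein-coding genes did). Both siControl lists held a region of 3 genes, Timp1, Timp2 and Plaur (11.0% of all genes), and both siChst7 lists of 3 genes, Timp2, Plaur and Mmp14 (11.3% of all genes). Timp2 was the 1 gene with a region in all 4 lists (8.32% of all genes).

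Timp2 encodes an inhibitor that, at low amounts, also helps the membrane enzyme of Mmp14 to activate the product of Mmp2. Its region at −10.02 kb from the start (chromosome 11, 118364699 to 118365613) had folds of 5.8 and 6.1 in the siControl lists and 16.2 and 8.8 in the siChst7 lists. It was the 1 region of the set called in all 4 lists, and its siChst7 replicate 1 peak had a better q than 94.2% of that list. The 4 summits lay within 240 bp. Another upstream region, at −7.88 kb (118363129 to 118363608) had 4.4 in siControl replicate 1 and 6.6 in siChst7 replicate 1, and one at −11.02 kb (118366345 to 118366566) had 5.0 in siControl replicate 2 alone. Upstream of Timp2 there were thus 3 separate regions in a stretch of a few kb, with the middle one the most widely called. The region past the far end of the gene (118299211 to 118299767), 1.61 kb downstream, had 9.7 and 5.4 in siControl and 7.5 in siChst7 replicate 1.

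Further regions inside Timp2 were not counted for it, because the gene Cep295nl lies within Timp2 and its end was nearer. One (chromosome 11, 118344954 to 118345248) had a fold of 5.8 in siChst7 replicate 1 alone. The other (118327022 to 118328106) was called in all 4 lists with folds of 11.3 and 7.2 in siControl and 10.7 and 13.9 in siChst7. By nearest start site in the promoter table it went to Timp2, 27.82 kb away, which made 2 regions of the set common to all lists, but that table has no start for Cep295nl.

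**Figure D2:**
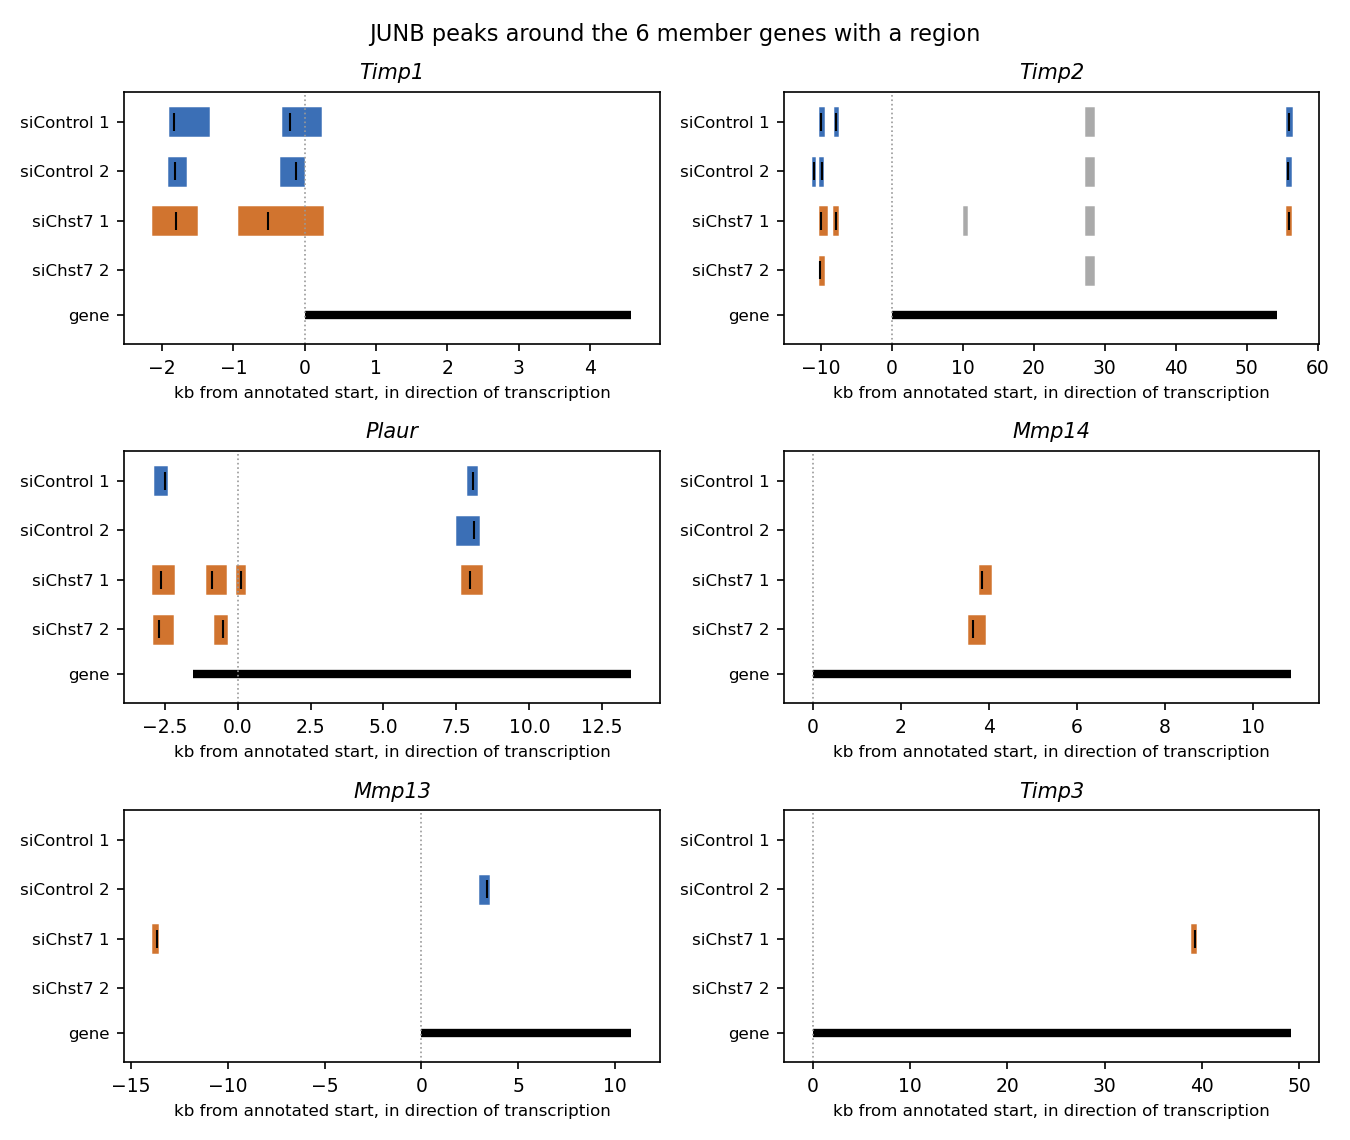
Called JUNB peaks around the 6 genes of the set that own a region, in kb from the annotated start in the direction of transcription (negative upstream). Blue bars are siControl and orange bars siChst7 peaks with their summits as black ticks, each row is 1 list, the black bar is the gene, and grey bars inside Timp2 are the joined extent of regions given to Cep295nl; Timp1 and Plaur have peaks beside the start, while the nearest Timp2 region stands at −7.88 kb.

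Timp1 encodes a secreted inhibitor of most metalloproteinases and lies inside the longer gene Syn1. It owned 2 upstream regions. The one over the start (chromosome X, 20869238 to 20870407) had folds of 4.7 and 4.5 in the siControl lists and 8.1 in siChst7 replicate 1. Its siControl replicate 2 peak ended at 20870135, short of the annotated start at 20870166. The one at −1.81 kb (20868041 to 20868815) had 5.0 and 7.1 in siControl and 6.4 in siChst7 replicate 1. Neither was called in siChst7 replicate 2, so every Timp1 call in the siChst7 group came from a single library. Summits of the distal region agreed within 32 bp. Those of the region over the start spread over 390 bp, with the siChst7 replicate 1 summit the farthest upstream.

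Timp3 encodes the inhibitor that stays bound to the matrix, and it lies within the much longer gene Syn3. It owned 1 region, inside the gene and 9.87 kb from its far end (chromosome 10, 86339426 to 86339672), with a fold of 6.1 in siChst7 replicate 1 and no call elsewhere. The genome nearest to Timp3 ends was 223.8 kb, the longest of the set, so its density was 0.45 regions per 100 kb. Timp2 reached 8.67 and Timp1 6.16 regions per 100 kb, over 46.2 and 32.5 kb.

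Plaur had the densest regions, 4 in 25.7 kb of genome nearest to it (15.57 per 100 kb). The annotated gene begins upstream of the start used for the promoter sequence, and distances here are from the latter. The region at −2.64 kb (chromosome 7, 24459585 to 24460254) had a fold of 6.4 in siControl replicate 1 and folds of 10.4 and 8.2 in the siChst7 lists. It was not called in siControl replicate 2. The region at −0.69 kb (24461448 to 24462070) had 6.3 and 5.0 in the siChst7 lists and no siControl call. It lay inside the annotated gene, 0.86 kb from the gene's end. The region at the start (24462449 to 24462694), also inside the annotated gene, had 8.7 in siChst7 replicate 1 alone. Farther into the gene, 8.07 kb downstream of the start, a region (24470011 to 24470815) had 7.1 and 5.6 in siControl and 8.7 in siChst7 replicate 1. The longest list, siChst7 replicate 1, thus held all 4 Plaur regions, and the others held 1 or 2.

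Of the 6 metalloproteinase genes of the set, 2 owned 3 regions, or 0.97 per 100 kb against 0.65 for all protein-coding genes, and each region was called in 1 or 2 lists. Mmp14 encodes a membrane-bound collagenase, and its region lay inside the gene, 3.74 kb from the start (chromosome 14, 54435159 to 54435627), with folds of 5.2 and 6.3 in the siChst7 lists and no siControl call. Mmp13 encodes the main interstitial collagenase of rodents. A region inside it (chromosome 9, 7275545 to 7275970) had 6.1 in siControl replicate 2 alone, and one at −13.68 kb (7258654 to 7258854) had 4.6 in siChst7 replicate 1 alone. No metalloproteinase gene of the set had a region in both siControl lists.

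For Mmp2 and Mmp9, the gelatinases, and for the stromelysin genes Mmp3 and Mmp10, no list held a region. The region nearest to Mmp2 was 179.2 kb away, nearer to Ces1a, and called in siChst7 replicate 1 alone. The region nearest to Mmp9 was 30.3 kb away, belonged to Zfp335, and was again called in siChst7 replicate 1 alone, with a fold of 4.0. The genome nearest to these 4 genes was 100.2 kb for Mmp2, 31.9 kb for Mmp9, 43.1 kb for Mmp3 and 44.7 kb for Mmp10. At the density over all protein-coding genes, 0.65 regions per 100 kb, stretches of such length often hold no region. Whether these genes hold fewer than others of their length was not tested.

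Whether JUNB regions of these genes differ when Chst7 is targeted could be judged from calls only. Both siControl lists held 5 of the 14 regions (31.1% of all regions) and both siChst7 lists held 4 (31.7% of all regions). All 4 lists shared 1 (22.0% of all regions), and a single list held 5 (46.7% of all regions). None of the 14 was called in the siControl pair alone (1.60% of all regions). A call in the siChst7 pair alone was found for 2 of 14, at Mmp14 and at −0.69 kb of Plaur (3.88% of all regions). These 2 had −log10 q values of 4.0 and 5.5 at Mmp14 and 6.1 and 3.3 at Plaur, where the lowest value of a list is 2.00 to 2.02. The summits of the 2 lists lay 224 bp apart at Mmp14 and 368 bp apart at Plaur. Overlap judged by summits with 100 bp on each side split both, leaving 0 siChst7-only regions, and so did lists of equal length. At equal length both kept their siChst7 replicate 2 peak and lost that of the long siChst7 replicate 1 list.

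Another 4 of the 14 regions were both at Timp1, the downstream one at Timp2 and the Plaur one 8.07 kb downstream of the start. These were in both siControl lists and siChst7 replicate 1 and missing from siChst7 replicate 2 (7.12% of all regions). That library has the shortest list. With it left out, a siChst7 call needed siChst7 replicate 1 alone, a looser rule. The siChst7 count was then 12 regions in place of 4, and 5 in place of 1 were common to all libraries used. The looser rule raises such counts by itself, so they do not measure what that library contributes. No region of the set was missing from siChst7 replicate 1 and present in both siControl lists.

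The number of peaks in the set was 7 and 7 in the siControl lists and 12 and 4 in the siChst7 lists. The siChst7 libraries thus stood on either side of the siControl libraries. Means were 7 ± 0 and 8 ± 5.66 (SD, n = 2 each), and the difference of mean log2 numbers, siChst7 minus siControl, was −0.01 (two-sided exact permutation p = 1, smallest possible 0.333). The numbers moved with list length: the peaks were 0.108% and 0.120% of the siControl lists and 0.118% and 0.0845% of the siChst7 lists.

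**Figure D3:**
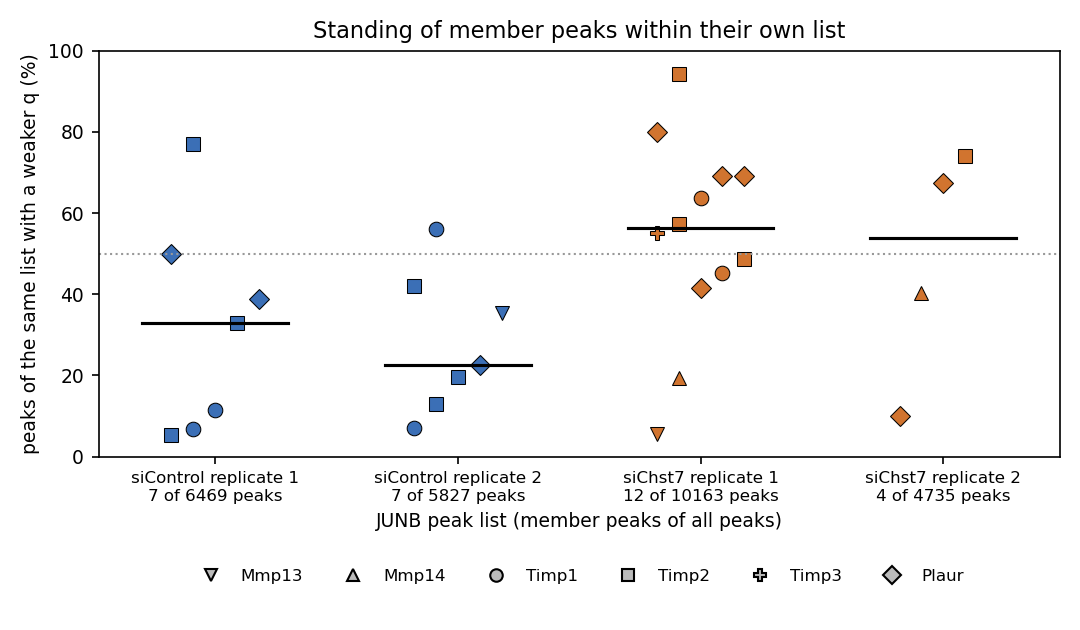
Share of peaks of the same list with a weaker q (y axis, percent) for each peak of the set, by JUNB list (blue siControl, orange siChst7); symbols show the gene, black lines the median of the set and the dotted line the middle of a list. Medians are 33.0% and 22.5% in the siControl lists and 56.2% and 53.8% in the siChst7 lists, and the highest point is the Timp2 peak at −10.02 kb in siChst7 replicate 1.

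The standing of the peaks within their own lists varied, and the highest stood above 94.2% of its list. The median fold of the set was 5.84 and 5.59 in the siControl lists, against 6.80 and 6.62 for all peaks of those lists, and 7.04 and 7.26 in the siChst7 lists, against 6.61 and 6.65. By q, the median peak of the set stood above 33.0% and 22.5% of the siControl lists and above 56.2% and 53.8% of the siChst7 lists. Above the middle of their own list stood 1 of 7, 1 of 7, 7 of 12 and 2 of 4 peaks. The lists differ in length, so these standings describe each list and give no change between groups. Timp2 gave the best-placed peak in siControl replicate 1 (downstream region, 77.1%) and in both siChst7 lists (upstream region, 94.2% and 74.2%); in siControl replicate 2 it was the distal Timp1 peak (56.0%).

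Other genes that control matrix breakdown were set beside the 10. For comparison, 25.1% of all protein-coding genes owned a region in any list, and 22.0% of all regions were in every list. Of 17 other metalloproteinase genes, Mmp19 alone owned a region, called in 3 lists with folds of 4.7 to 6.1. Together 3 of 23 metalloproteinase genes owned 4 regions, or 0.32 per 100 kb, while the 6 of the set alone stood at 0.97. The 3 Timp genes of the set owned 7, or 2.31 per 100 kb, and Timp4, the remaining Timp gene, owned none. The plasminogen system, to which Plaur belongs, had regions at 7 of 8 listed genes, 27 in all (3.61 per 100 kb), 8 of them in every list. Uaca, with 2 of the 27 and 1 of the 8, stands in that list without being a core component of the system. Anxa2, whose protein binds plasminogen activator at the cell surface together with that of S100a10, owned 10 of these. A region inside Anxa2 (chromosome 9, 69457507 to 69458717) had folds of 35.4 and 42.9 in siControl and 24.9 and 20.2 in siChst7, above any peak of the 10 genes. Plat, Plg, Lrp1 and S100a10 also had a region in every list. Plau, which encodes urokinase, the ligand of the Plaur product, had 3 regions, each in siChst7 replicate 1 alone.

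Adam and Adamts genes owned regions at 7 of 17 (0.69 per 100 kb), and cathepsins and other matrix proteases at 5 of 12 (1.37 per 100 kb). The share of all protein-coding genes was 25.1%. Regions in every list stood at Adam9, Adam17, Adamts1, Adamts6, Adamts14, Ctsb, Furin and Htra1, where 8.32% of all genes had one. None of the regions of these other protease genes was called in the full pair of 1 siRNA group and in no list of the other. Such calls were rare over all regions too, 1.60% for the siControl pair alone and 3.88% for the siChst7 pair alone. The differences in density between lists were not tested.

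**Figure D4:**
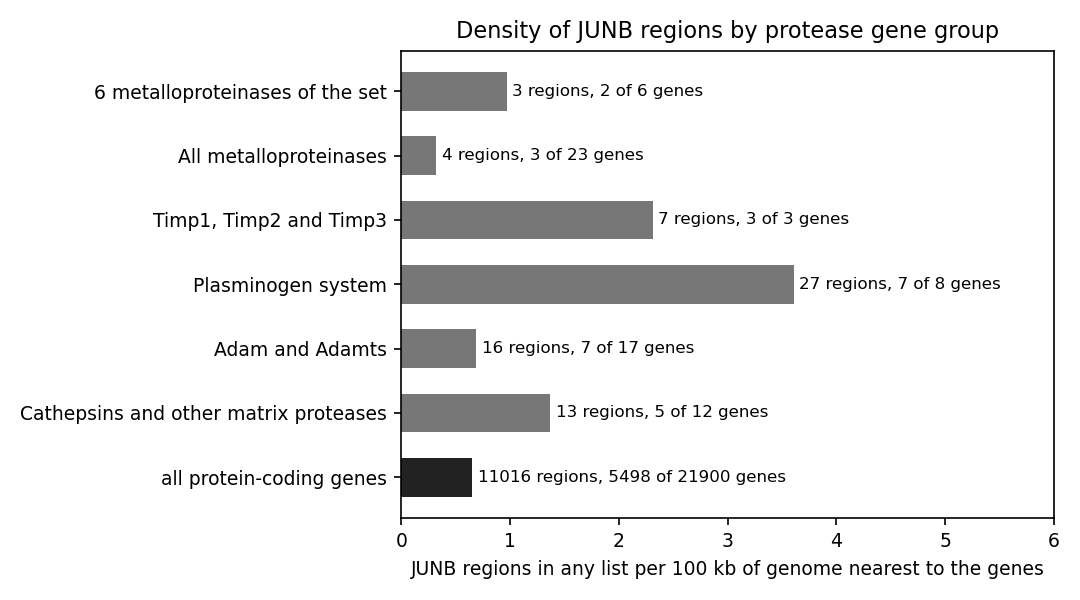
JUNB regions of any list per 100 kb of genome nearest to the genes (x axis), for groups of protease genes, the 6 metalloproteinases and 3 Timps of the set, and all protein-coding genes (black). Labels give regions and genes with a region; all metalloproteinases together, with 4 regions at 3 of 23 genes, lie below the 0.65 of all genes, and the metalloproteinases (0.97) and Timps (2.31) of the set and the plasminogen system (3.61) above it.

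By their numbers of peaks in the 4 lists, 6 other genes matched Timp2 (3, 3, 3 and 1) and 6 matched Plaur (2, 1, 4 and 2). Those with the most similar length of nearest genome were Sh3pxd2b, Cd93, Ypel2, Notch2 and Rmdn2 for Timp2, and among others Zfp955a, Mdm2, Emc7 and Litaf for Plaur. The match is of 4 small numbers that follow list length in part.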

How the data were processed

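JUNB CUT&RUN peak lists of 4 libraries were used, 2 with siControl and 2 with siChst7. Reads were handled with Bowtie2 and MACS3 on mm10, per the submitters' processing notes; versions, settings and any IgG control are not given in the sources used here. Peaks were called for each library, per the peak names in the deposited lists. The deposited values are a fold enrichment, a ratio over local background, −log10 p and q, and a score that is 10 times the −log10 q without decimals. Lists were matched to samples by siRNA and replicate number in the peak names. A group was given a region only where each of its lists had a peak there. Coordinates are 1-based on mm10. Genes and sequences came from RefSeq tables of GRCm38.p6; all 93 entries of the gene lists matched. Promoter windows took the place of the planned motif search around summits, which needs a genome. Fold and q were used only within a list. Some genes are not reported here. The members and gene lists were chosen with earlier results of these data known. By rule all members were named, with regions in 3 or more lists or in 1 group alone; their other regions and the Mmp promoters were added after values were seen. Other genes of the lists are named where they had a region in all 4 lists, with a few more chosen after their values were seen (Mmp19, Plau, Timp4, marker genes and neighbours of the members). The test of peak numbers permuted library labels exactly, two-sided. Joining, calling and gene assignment were tested on simulated lists. Alternatives were other overlap rules, stricter thresholds, equal list length, other gene assignment, leaving out each library and a replicate block. Software was Python 3.11.15, NumPy 2.4.6, pandas 2.3.3 and Matplotlib 3.10.9.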

Additional observations from a re-analysis of the deposited data

How the results depend on the processing

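Counts of 14 regions are small, and most alternatives moved some of them by over 1.5 times. Regions in both siControl lists numbered 3 with 50% reciprocal overlap, a fold of at least 5 or equal list length, and 11 when any region within 100 kb of a gene of the set was counted. Regions in both siChst7 lists numbered 2 with summit windows or equal list length, and 7 with any region within 100 kb. Regions in all 4 lists numbered 4 with any region within 100 kb and 2 by nearest start site, an alternative chosen after seeing the data whose start table has no entry for Cep295nl or Irgc1, owners of the 3 regions it gave to Timp2 and Plaur. The siControl-only count became 1 with 50% reciprocal overlap or summit windows, from the region over the Timp1 start, and the siChst7-only count became 1 with 50% reciprocal overlap, at Plaur, and 0 with summit windows or equal list length. The log2 difference in peak numbers turned to 0.21 at a −log10 q of at least 3, 0.57 at a fold of at least 5, 0.24 at equal list length, 0.03 by gene body with 5 kb and 0.06 by nearest start site (two-sided exact permutation p = 1 in each). Leaving out 1 library gave 5 to 7 regions and 3 to 4 genes for siControl, 4 to 12 regions and 3 to 6 genes for siChst7, 1 to 5 regions in all lists used, 0 to 4 siControl-only and 2 to 5 siChst7-only regions, and a log2 difference of −0.81 to 0.78. A group left with 1 library needed a call in that library alone, a looser rule than with all lists. The highest siChst7 and shared counts came without siChst7 replicate 2, the highest siControl-only count without siChst7 replicate 1. Without siControl replicate 1 the siControl-only count was 2, and without siControl replicate 2 the shared count was 2. With the replicate block, exchanging labels within a replicate number, the difference of −0.01 had an exact permutation p of 1, where 0.5 is the smallest possible; the labels do not say that a number marks a shared batch. The planned motif search around summits was not run. Without read counts, a region that is not called is not shown to be unbound.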

Other observations

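Several regions within 100 kb of the genes of the set were nearer to another gene. Kcnn4, a potassium channel gene, had a region in all 4 lists 73.3 kb from Plaur (chromosome 7, 24387014 to 24388210). Its folds were 16.1 and 16.8 in siControl and 20.2 and 10.7 in siChst7, higher in each list than any Plaur peak of that list. C1qtnf1, which encodes a secreted protein, had one 75.24 kb from Timp2 (chromosome 11, 118429710 to 118431096) with 10.2 and 7.7 in siControl and 16.1 and 5.6 in siChst7. Lgals3bp, which encodes a secreted galectin-binding glycoprotein, had one 24.15 kb from Timp2 (118379410 to 118379829) with 11.0 and 6.2 in siControl, 9.0 in siChst7 replicate 1 and no call in siChst7 replicate 2. Which gene any of these regions acts on was not tested.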
